A study of Mus musculus with 17 samples.

Results

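The genes described here, known from fetal tissue or the suckling gut, are 10 of the 53278 gene symbols in the deposited table, followed through weaning in small-intestinal epithelium: Igf2bp1, Igf2bp2, Igf2bp3, Lin28b, Igf2, H19, Gpc3, Afp, Prdm1 and Lect2. They were chosen by name, with expression values of these same libraries in view, so their course with age is a description, and the calls counted for it near the end support nothing. All mice carried the same genotype, Igha -/+, on a C57BL/6 background, and so had a working copy of the IgA heavy chain gene. They differed in the dam that nursed them, which was either Igha-/- and supplied no maternal IgA (IgA-null dam) or C57BL/6 (B6 dam), and in the day of life, 14, 24 or 42. IgA-null dam groups held 3 libraries at each age, and B6 dam groups held 3, 2 and 3 libraries at days 14, 24 and 42. Cells were sorted as EpCAM+ CD45- Ter119-, a gate for epithelium that leaves out cells marked as leukocytes or red cells. Transcripts of marker genes of both were still detected, as given below. Expression was deposited as TPM, a level per length of transcript that sums to the same total in every library. Nothing in the labels says whether the mice of a group came from separate litters, and a p-value here measures only the spread between these libraries.

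LIN28B is an RNA-binding protein of embryonic tissue that blocks the maturation of the let-7 microRNAs, and let-7 in turn represses many fetal messages, those of Lin28b, Igf2bp1, Igf2bp2 and Igf2bp3 among them. The IGF2BP proteins bind and stabilise messenger RNAs, Igf2 encodes a fetal growth factor, and H19 is the long non-coding RNA imprinted together with it. Prdm1 encodes BLIMP1, the transcriptional repressor that holds back the adult enterocyte programme in the suckling mouse gut. Gpc3 encodes a cell-surface glypican that limits fetal growth, and Afp and Lect2 encode secreted proteins best known from fetal and adult liver. In the mouse gut, Afp transcripts have been placed in enteroendocrine cells.

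The seed of let-7 links the first 4 genes by sequence. The mature miRNA is shown with bases 2 to 8, the seed, in capitals, and beneath it a match to that seed (CTACCTC, in capitals) from each of the 4 messages with the flanking bases. These serve to show what the IGF2BP and Lin28b messages have in common, since no small RNA was measured here.
let-7a-5p: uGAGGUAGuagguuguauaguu
Lin28b site 1: acccgggcgggaagtCTACCTCatgca
Igf2bp1 site 3: gtataaatggatgaaCTACCTCagtcc
Igf2bp2 site 1: acacacaaataaaagCTACCTCaggtg
Igf2bp3 site 1: tgcatttttactcaaCTACCTCaggta
In the longest annotated 3′ end of each gene (GENCODE M21), CTACCTC stood 4 times in Lin28b, 4 times in Igf2bp1 and 1 time each in Igf2bp2 and Igf2bp3. It was not found in the 3′ ends of Igf2, Gpc3, Afp, Prdm1 or Lect2, and H19 has none annotated. Longer 3′ ends hold more matches, and those of Igf2bp1, Lin28b, Igf2bp3 and Igf2bp2 were 6337, 4445, 2119 and 1784 bases long, against a median of 960. Of all 21028 genes with a 3′ end 9.02% held at least 1 such heptamer, of the 10243 with 1000 bases or more 15.18%, and of the 795 with over 5000 bases 36.86%. At least 3 stood in 0.15% of all and in 2.01% of the longest group. A match of 7 letters is a description and does not show that the message is bound.

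The promoters of Afp, Lect2, Gpc3 and Igf2bp3 are printed because the course of Afp contrasted with those of the other genes. Each is 300 bases, from 250 before to 50 after the RefSeq start (GRCm38.p6), read in the direction of the gene, and capitals mark TATAAA, the TATA box, and GTTAAT, a motif of the hepatocyte nuclear factor HNF1.
Afp, chr5:90490464-90490763, plus strand: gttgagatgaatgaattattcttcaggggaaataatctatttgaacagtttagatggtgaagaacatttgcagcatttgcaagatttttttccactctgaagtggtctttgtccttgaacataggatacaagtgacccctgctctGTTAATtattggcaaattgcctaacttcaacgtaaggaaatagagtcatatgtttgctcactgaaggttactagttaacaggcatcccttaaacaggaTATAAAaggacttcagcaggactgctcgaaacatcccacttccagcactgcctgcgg
Lect2, chr13:56548489-56548788, minus strand: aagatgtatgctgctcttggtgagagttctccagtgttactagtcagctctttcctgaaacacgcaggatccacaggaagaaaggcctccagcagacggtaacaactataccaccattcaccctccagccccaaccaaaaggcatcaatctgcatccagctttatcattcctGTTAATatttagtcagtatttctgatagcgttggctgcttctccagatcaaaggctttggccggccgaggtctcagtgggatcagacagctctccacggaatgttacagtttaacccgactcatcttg
Gpc3, chrX:52613925-52614224, minus strand: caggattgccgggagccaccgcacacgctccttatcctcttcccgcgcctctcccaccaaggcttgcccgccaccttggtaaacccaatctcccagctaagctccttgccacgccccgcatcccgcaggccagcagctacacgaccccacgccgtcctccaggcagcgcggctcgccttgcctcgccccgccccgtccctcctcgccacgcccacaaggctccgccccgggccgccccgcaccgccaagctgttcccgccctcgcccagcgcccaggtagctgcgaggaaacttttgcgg
Igf2bp3, chr6:49214905-49215204, minus strand: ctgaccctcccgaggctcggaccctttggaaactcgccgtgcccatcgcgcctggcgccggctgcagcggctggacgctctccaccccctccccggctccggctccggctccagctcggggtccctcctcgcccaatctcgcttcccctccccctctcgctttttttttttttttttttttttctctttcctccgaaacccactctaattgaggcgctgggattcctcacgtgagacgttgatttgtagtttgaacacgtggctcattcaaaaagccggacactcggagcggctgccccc
Both strands were searched for 5 motifs, the TATA box TATAAA, the HNF1 motif GTTAAT, the GATA factor motif AGATAA, the CDX factor motif TTTATG and the core GAAAGT of the PRDM1 site, and no hits overlapped in these 4 windows. GTTAAT stood in the Afp and Lect2 windows and in 7.1% of all 32851 RefSeq promoter windows, and TATAAA stood in the Afp window and in 13.6% of all. The base composition divided them in the way that GTTAAT did, which was not by course. Over the 17 libraries, Pearson's r of log2(TPM + 1) with Lect2 was 0.945 for Gpc3, 0.885 for Igf2bp3 and 0.296 for Afp. Of 300 bases, 120 in the Afp window and 144 in the Lect2 window were G or C, with 3 and 7 CG pairs, while Gpc3 and Igf2bp3 had 212 and 181 such bases with 30 and 25 CG pairs. Over all promoters the median was 52.7% G or C and 7 CG pairs.

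Facts of the whole table bear on every level below. Between 8927007 and 18897598 reads per library were recovered on genes with an annotated length. A predicted gene, Gm23935, took 40.2% to 61.9% of all TPM, and mitochondrial transcripts took 13.7% to 34.6%. At day 14 other nuclear genes were left 24.7% to 30.9% in the IgA-null dam group and 18.8% to 19.7% in the B6 dam group. At day 24 they were left 10.3% to 15.2% in the IgA-null dam group and 15.9% to 18.4% in the B6 dam group. The TPM of most genes also shifted together, and the relation of that shift to these shares was not tested. Levels divided by size factors of the median-of-ratios kind (0.480 to 1.84) are therefore given beside the deposited ones and called scaled. In bulk samples such as these, fewer cells of a type and less RNA per cell cannot be told apart. The descriptions of the samples carry dates that differ between the dams at days 14 and 24 and are shared at day 42. A difference of date and a difference of dam cannot be told apart at the earlier ages. The dates also differ between the ages, except that days 24 and 42 share a date in the IgA-null dam group. Apart from that interval, a difference of date and a difference of age cannot be told apart within a dam group. The descriptions begin with F in all IgA-null dam libraries and with M in all B6 dam libraries. What these letters mark is not stated, and it cannot be told apart from the dam at any age.

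**Figure D1:**
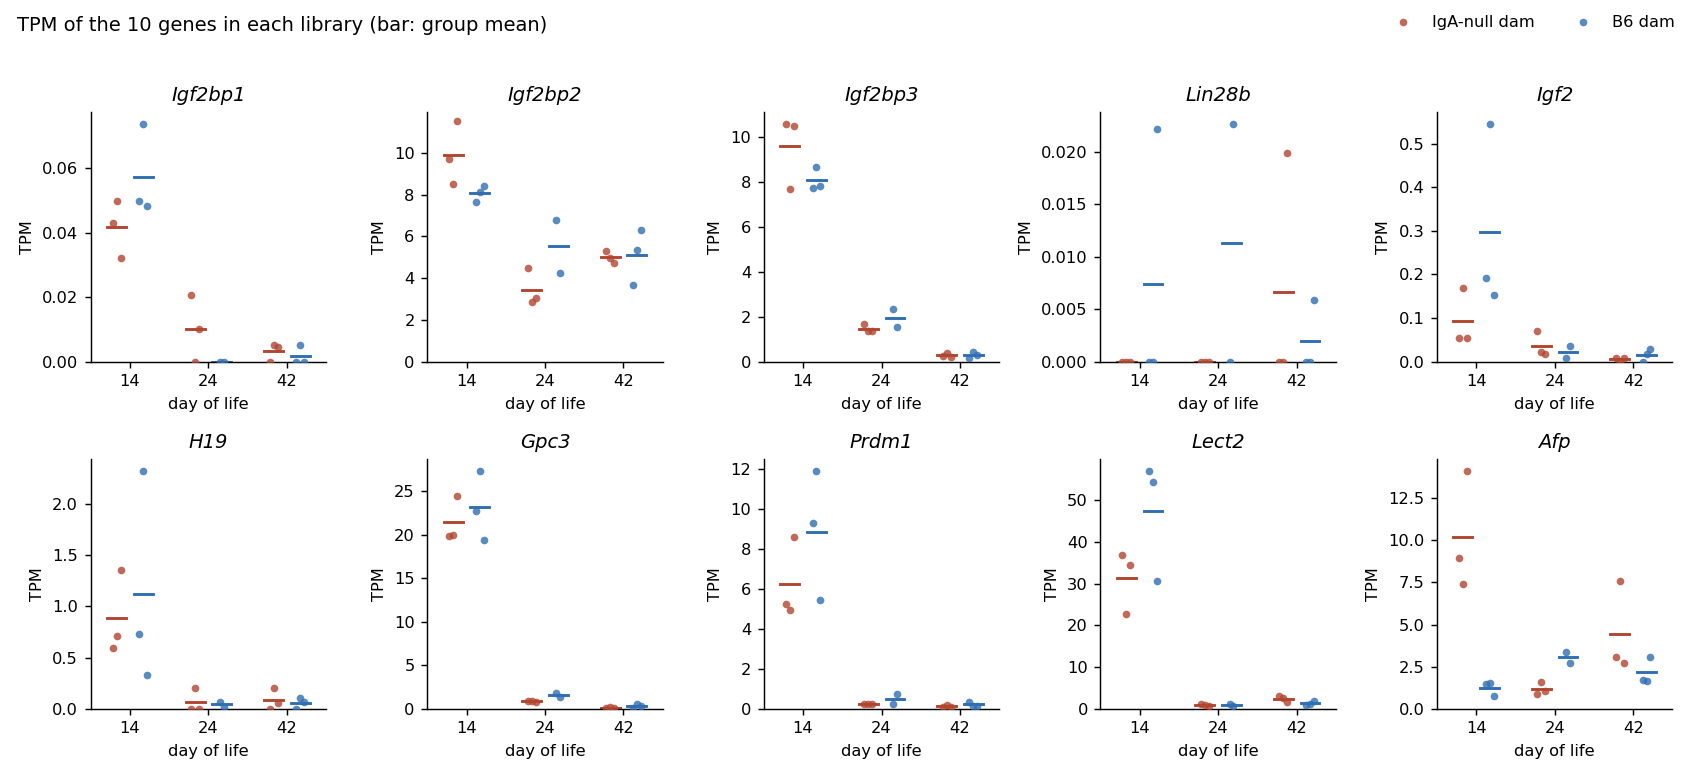
Level in TPM (vertical axes, a scale of its own for each gene) of the 10 genes by day of life, with 1 point per library, IgA-null dam in red left of B6 dam in blue, and a bar at the group mean. Day 14 libraries stand above all later ones, as deposited, for Igf2bp1, Igf2bp2, Igf2bp3, H19, Gpc3, Prdm1 and Lect2, while Afp at day 14 is high in the IgA-null dam group and low in the B6 dam group.

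Of the 3 IGF2BP genes, Igf2bp3 was at most 0.422 TPM by day 42, Igf2bp2 was at 2.86 TPM or more in every library, and Igf2bp1 did not exceed 8 reads in any library. Igf2bp3 (chromosome 6, 49085223 to 49214957, minus strand, GRCm38) stood at 10.6, 7.70 and 10.5 TPM at day 14, 1.67, 1.38 and 1.37 TPM at day 24 and 0.272, 0.370 and 0.227 TPM at day 42 in the IgA-null dam group. The B6 dam libraries had it at 7.74, 8.67 and 7.84 TPM, then 2.34 and 1.52 TPM, then 0.149, 0.422 and 0.288 TPM. Libraries of successive ages did not overlap in either dam group. The mean was 6.53-fold lower at day 24 than at day 14 in the IgA-null dam group and 4.19-fold lower in the B6 dam group, and at day 42 it was 5.08-fold and 6.74-fold below day 24 in the same groups. Igf2bp3 was lower in both intervals. The scaled means were 2.29-fold and 3.11-fold lower at day 24 than at day 14, and 9.28-fold and 7.995-fold lower at day 42 than at day 24, in the IgA-null dam group and the B6 dam.

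Igf2bp2 (chromosome 16, 22059009 to 22163299) encodes the family member that persists in adult tissues. It was at 9.70, 8.52 and 11.5 TPM at day 14, 4.46, 2.86 and 3.04 TPM at day 24 and 5.32, 4.94 and 4.72 TPM at day 42 in the IgA-null dam group. In B6 dam libraries the levels were 7.66, 8.14 and 8.43 TPM, then 6.78 and 4.27 TPM, then 3.69, 5.33 and 6.29 TPM. As deposited, every day 14 library exceeded every later one, but little of the difference was left after scaling: the scaled log2 fold change of day 24 over day 14 was -0.03 (SE 0.08) in the IgA-null dam group and -0.11 (SE 0.08) in the B6 dam group. The scaled mean at day 42 was 1.27-fold below that at day 14 in the IgA-null dam group and 1.38-fold below in the B6 dam group. Its values could not be turned back into whole reads, and no read counts are given for it.

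Igf2bp1 (chromosome 11, 95957163 to 96005940) and Lin28b (chromosome 10, 45376620 to 45486395) were counted in single reads and were below the filter for testing. Igf2bp1 had 4, 5 and 3 reads at day 14, 3, 0 and 2 at day 24 and 0, 1 and 1 at day 42 in the IgA-null dam group, and 7, 8 and 7, then 0 and 0, then 0, 1 and 0 in the B6 dam group. Its highest level in any library was 0.0736 TPM. As deposited TPM, all 6 day 14 libraries lay above all later ones, but after scaling the lowest at day 14 (0.0175) lay below the highest later one (0.0288), at counts where 3 reads is the limit that a count of 0 allows. Lin28b had 13 reads in all 17 libraries together and none in 13 of them, so that no course with age was detectable at this depth.

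The rest of the LIN28 and let-7 pathway was better measured. Of 14 listed genes 11 passed the filter, and all 11 were lower at day 24 than at day 14 over both dams in limma's test with Benjamini-Hochberg adjustment, where 75% of all genes tested were lower; 7 of the 11 were lower after scaling, where 13.5% of all were. Of the 11, Mycn reached the filter through day 14 libraries alone, so that its difference was fixed by the filter. Mycn, a growth-promoting transcription factor, averaged 0.444 ± 0.0953 TPM at day 24 and 5.595 ± 0.134 TPM at day 14 in the IgA-null dam group (SD, n = 3 each). Arid3a, a DNA-binding protein whose message is a let-7 target, stood at 1.26 ± 0.977 TPM at day 24 and 17.1 ± 2.24 TPM at day 14 in the same dam group (SD, n = 3 each). Hmga2, the chromatin protein that is the classic let-7 target, had scaled log2 fold changes of -0.61 over both dams, and Dicer1, which cuts the let-7 precursor, of -0.36. Lin28a, the paralog of Lin28b, did not exceed 0.0446 TPM in any library.

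**Figure D2:**
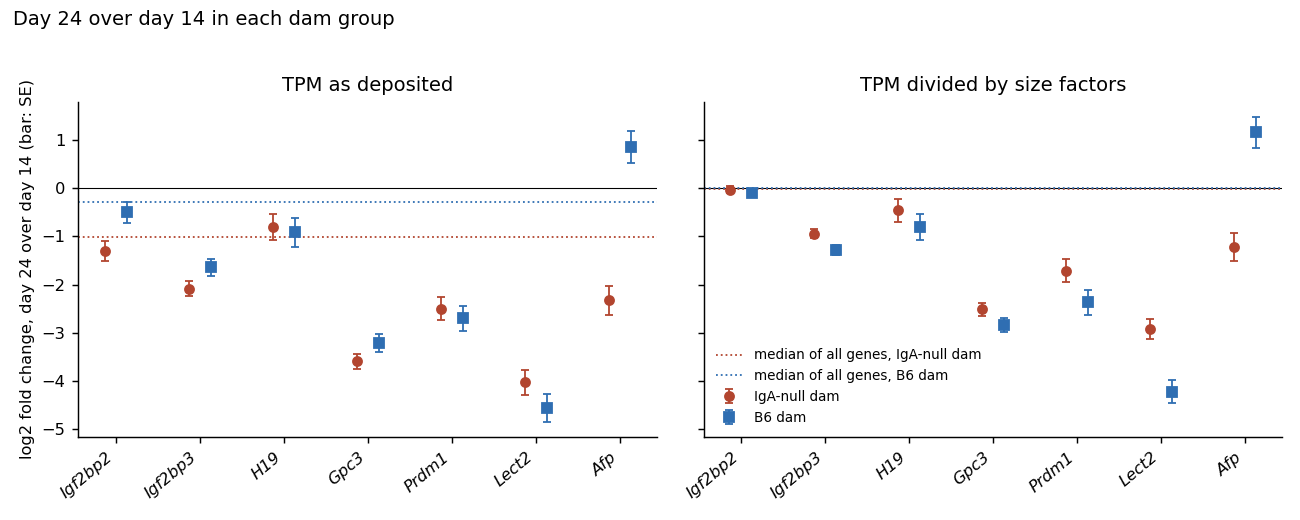
Log2 fold change of day 24 over day 14 on the log2(TPM + 1) scale for the 7 genes past the filter, with the SE as bars, IgA-null dam as red circles left of B6 dam as blue squares, on deposited TPM (left) and on scaled TPM (right). Dotted lines give the median of all genes, which scaling brings to about 0; Igf2bp2 moves with it, Gpc3, Prdm1 and Lect2 stay below it, and Afp differs in sign between the dams.

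The imprinted pair Igf2 and H19, 72.6 kb apart on chromosome 7, was scarce in this epithelium, and both had their highest means at day 14. H19 (142575529 to 142578143) was at 0.590, 0.707 and 1.35 TPM at day 14, 0, 0.201 and 0 TPM at day 24 and 0, 0.201 and 0.0551 TPM at day 42 in the IgA-null dam group. B6 dam libraries showed 0.726, 2.32 and 0.326 TPM, then 0.0710 and 0.0167 TPM, then 0, 0.103 and 0.0652 TPM. No later library reached the lowest day 14 library, but after scaling the lowest at day 14 (0.275) lay below the highest later one (0.369), and the dams overlapped at each age. Igf2 (142650766 to 142666816) had 3, 10 and 3 reads, then 6, 2 and 2, then 1, 0 and 1 reads in the IgA-null dam group. In the B6 dam group Igf2 had 16, 35 and 13 reads, then 1 and 5, then 0, 2 and 3 reads.

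Replicate 2 of the B6 dam at day 14 held the highest level of both H19 and Igf2, and also of Gpc3 and Prdm1. Igf2 at day 14 averaged 0.0925 ± 0.0660 TPM in the IgA-null dam group and 0.296 ± 0.216 TPM in the B6 dam group (SD, n = 3 each), and these groups overlapped. It stayed below the filter and was not tested. Markers of fibroblasts and smooth muscle, cells that also express this pair in young tissue, summed to at most 0.795 TPM over 10 genes in any library. At day 14 the sum was 0.499 to 0.795 TPM in the IgA-null dam group and 0.1605 to 0.377 TPM in the B6 dam group. The part of these cells in the levels of H19 and Igf2 was not tested.

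Other imprinted genes and genes of IGF signalling were counted in the same comparison, where 75% of all genes were lower as deposited and 13.5% scaled. Of 19 other imprinted genes 8 passed the filter, and 8 were lower at day 24 over both dams, 5 of them after scaling; Grb10 and Plagl1 passed through day 14 libraries alone, and without them the counts were 6 of 6 and 3 scaled. Plagl1, a zinc-finger factor of the imprinted growth network, averaged 0.0483 ± 0.0352 TPM at day 24 and 1.44 ± 0.469 TPM at day 14 in the IgA-null dam group (SD, n = 3 each). Cdkn1c, an imprinted inhibitor of cell division, had a scaled log2 fold change of -1.54 over both dams. Between the dams at day 14, Nnat and Peg3, both expressed from the paternal copy, were higher in the IgA-null dam group as deposited and scaled, where 8.32% and 1.81% of all genes were, and Cdkn1c and Igf2r, the receptor that clears IGF2, were lower after scaling, where 1.16% of all were. Peg3 stood at 4.79 ± 0.948 TPM in the IgA-null dam group and 0.987 ± 0.267 TPM in the B6 dam group (SD, n = 3 each, limma adjusted p = 0.0057). Of 14 genes of IGF signalling 6 passed the filter and 6 were lower at day 24 over both dams, 4 after scaling, or 5 of 5 and 3 scaled without Grb10. Among them Igf2r had a scaled log2 fold change of -0.45 and Igfbp4, an IGF-binding protein, of -1.06. Igf1, the ligand of postnatal growth, stayed at or below 0.0203 TPM.

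Gpc3 (chromosome X, 52272426 to 52613950, minus strand) had the largest drop of mean TPM, as a fold, of the 7 tested genes between days 14 and 42. It was at 19.9, 20.0 and 24.5 TPM at day 14, 0.872, 0.917 and 0.757 TPM at day 24 and 0.101, 0.202 and 0.0840 TPM at day 42 in the IgA-null dam group. The B6 dam libraries had it at 22.8, 27.3 and 19.4 TPM, then 1.80 and 1.37 TPM, then 0.0969, 0.527 and 0.298 TPM. No libraries of different ages overlapped within a dam group. Its mean at day 42 was 166-fold below that at day 14 in the IgA-null dam group and 75.4-fold below in the B6 dam group, and 107-fold and 67.7-fold after scaling. The lowest library still held 5 reads.

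Its neighbour Gpc4, another glypican, 107.2 kb away, took a different course. Gpc4 averaged 14.7, 7.71 and 10.7 TPM at days 14, 24 and 42 in the IgA-null dam group, against 12.4, 10.6 and 10.97 TPM in the B6 dam group. As deposited, Gpc4 was called lower at day 24 than at day 14 over both dams (log2 fold change -0.56), as were 75% of all genes. After scaling, Gpc4 at day 24 over day 14 had a log2 fold change of 0.33 over both dams (limma adjusted p = 0.13). Gpc3 was 8.83-fold and 10.6-fold lower over the same interval, scaled, in the IgA-null dam group and the B6 dam.

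Prdm1 (chromosome 10, 44437177 to 44528501, minus strand) dropped between days 14 and 24 and was low thereafter. In the IgA-null dam group it was at 5.22, 4.92 and 8.61 TPM, then 0.240, 0.254 and 0.261 TPM, then 0.0969, 0.177 and 0.0972 TPM. In B6 dam libraries the levels were 9.28, 11.9 and 5.42 TPM, then 0.227 and 0.729 TPM, then 0.350, 0.145 and 0.163 TPM. The mean was 24.8-fold lower at day 24 than at day 14 in the IgA-null dam group and 18.5-fold lower in the B6 dam group, or 8.44-fold and 11.6-fold after scaling. The later ages of the B6 dam overlapped. Leukocytes also express Prdm1, and 10 of their markers summed to 1.62 to 1.86 TPM in the IgA-null dam group and 1.88 to 8.58 TPM in the B6 dam group at day 14, and to at most 3.22 TPM at the later ages. Most of the highest sum came from Csf1r, a macrophage receptor, at up to 0.787 TPM in the IgA-null dam group and up to 7.62 TPM in the B6 dam group at day 14. Jchain, of plasma cells, did not exceed 0.234 TPM in any library. The part of leukocytes in the level of Prdm1 was not tested.

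Genes of the suckling and of the adult enterocyte were counted over the same interval. Of 12 genes of the suckling enterocyte 11 passed the filter, and 11 were lower at day 24 over both dams, where 75% of all genes were, and 8 after scaling, where 13.5% were; Dab2 passed through day 14 libraries alone. Of 10 genes of the adult enterocyte 6 were higher, where 1.94% of all genes tested were, and 8 after scaling, where 16.2% of all were. In the IgA-null dam group by itself 2 of the 10 adult genes were higher as deposited and 5 scaled. Fcgrt, the neonatal receptor for IgG, averaged 7.02 ± 0.874 TPM at day 24 and 184 ± 70.4 TPM at day 14 in the IgA-null dam group (SD, n = 3 each). Sis, the brush-border sucrase-isomaltase of the adult gut, averaged 67.5 ± 23.9 TPM at day 24 and 17.4 ± 8.33 TPM at day 14 in that group.

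Lect2 (chromosome 13, 56542464 to 56548502, minus strand) was the most abundant of the 10 genes at day 14. In the IgA-null dam group it was at 36.8, 22.8 and 34.5 TPM at day 14, 1.17, 0.940 and 0.739 TPM at day 24 and 3.18, 2.48 and 1.57 TPM at day 42. B6 dam libraries showed 57.0, 54.5 and 30.6 TPM, then 1.24 and 0.760 TPM, then 0.993, 1.21 and 1.92 TPM. The level at day 24 was 33.1-fold below that at day 14 in the IgA-null dam group and 47.5-fold below in the B6 dam group, or 11.7-fold and 35.6-fold after scaling. Libraries of the IgA-null dam at day 42 all exceeded those at day 24, by 2.54-fold in the mean and 1.40-fold after scaling, while those of the B6 dam overlapped.

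Afp (chromosome 5, 90490737 to 90508907, plus strand) did not share this course, and its order with age differed between the dams. In the IgA-null dam group it was at 8.96, 7.42 and 14.13 TPM at day 14, 0.895, 1.58 and 1.05 TPM at day 24 and 3.07, 7.58 and 2.72 TPM at day 42. Levels under the B6 dam were 1.49, 1.53 and 0.755 TPM, then 3.40 and 2.72 TPM, then 1.71, 1.65 and 3.09 TPM. It was lowest at day 24 in the IgA-null dam group and lowest at day 14 in the B6 dam group. Day 24 lay 8.66-fold below day 14 in the IgA-null dam group and 2.43-fold above it in the B6 dam group, and after scaling 2.91-fold below and 3.35-fold above it. Its neighbours differed from it: Afm, which encodes the related plasma protein afamin and lies 10024 bases away, averaged 1.51, 0.144 and 0.0376 TPM in the IgA-null dam group and 1.47, 0.125 and 0.146 TPM in the B6 dam group, and Alb, 14134 bases away, did not exceed 0.165 TPM in any library.

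The list of 15 factors known to act on Afp, H19 or Gpc3 in liver was measured in full. At day 24 over day 14 across both dams 13 of them were lower, where 75% of all genes were, and after scaling 4 were lower and 1 higher, where 13.5% and 16.2% of all were. None differed between the dams at day 14, as deposited or scaled. Zhx2, named here for its known role as the postnatal repressor of Afp, H19 and Gpc3 in mouse liver, averaged 4.62 ± 1.07, 2.38 ± 0.454 and 4.19 ± 0.566 TPM at days 14, 24 and 42 in the IgA-null dam group (SD, n = 3 each). Under the B6 dam it averaged 2.90 ± 0.177 TPM at day 14 (SD, n = 3), was at 3.43 and 4.03 TPM at day 24, and averaged 4.21 ± 1.02 TPM at day 42 (SD, n = 3).

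Between the dams, Afp at day 14 was the 1 member of the 7 tested that passed as deposited, where 8.68% of the 15066 genes tested passed. It averaged 10.2 ± 3.52 TPM in the IgA-null dam group and 1.26 ± 0.437 TPM in the B6 dam group (SD, n = 3 each), and all 3 libraries of the IgA-null dam stood above all 3 of the B6 dam. The log2 fold change was 2.28 (SE 0.30, adjusted p = 0.0012, limma), and 1.79 (SE 0.29, adjusted p = 0.0069) after scaling. With each library of the comparison left out in turn it lay between 2.04 and 2.46 (adjusted p between 0.0022 and 0.0068).

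**Figure D3:**
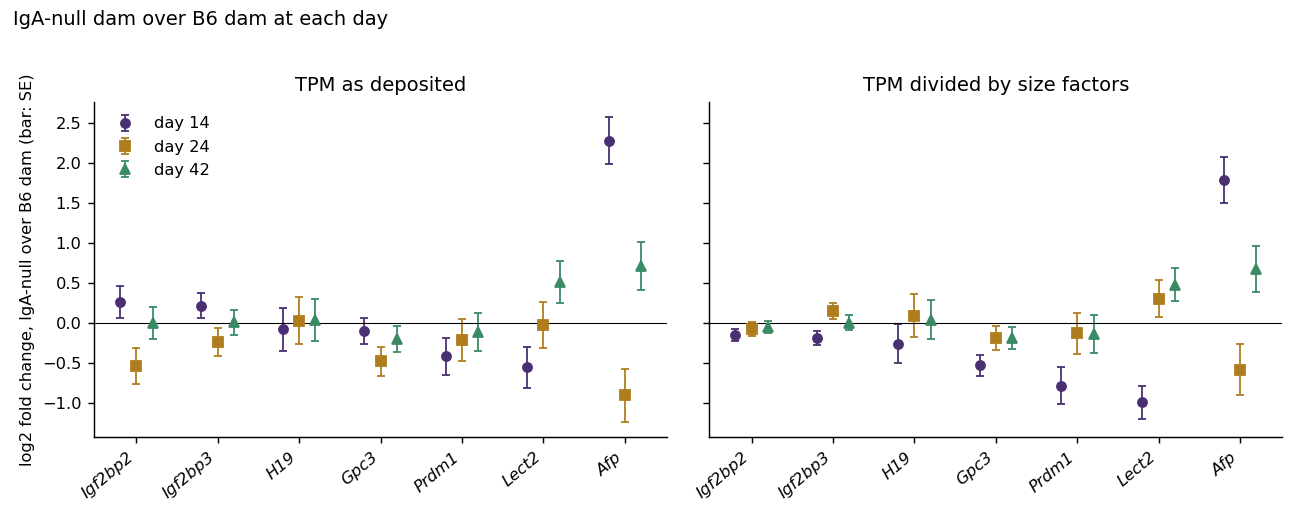
Log2 fold change of the IgA-null dam over the B6 dam on the log2(TPM + 1) scale at days 14 (circles), 24 (squares) and 42 (triangles) for the 7 genes past the filter, with the SE as bars, on deposited TPM (left) and on scaled TPM (right). Afp at day 14 stands at 2.28 as deposited and 1.79 scaled; after scaling Gpc3 and Lect2 at day 14 lie at -0.53 and -0.99.

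The other 6 tested members at day 14 had log2 fold changes between -0.56 (Lect2, SE 0.26, adjusted p = 0.15) and 0.26 (Igf2bp2, SE 0.20, adjusted p = 0.36) as deposited. After scaling, Lect2 (-0.99, SE 0.21, adjusted p = 0.024) and Gpc3 (-0.53, SE 0.13, adjusted p = 0.048) also passed. Both were lower in the IgA-null dam group, where 1.16% of all genes were. Scaled Prdm1 lay in the same direction and missed the threshold (-0.79, SE 0.23, adjusted p = 0.080). On recovered reads with limma-voom Lect2 passed and Gpc3 did not (adjusted p = 0.019 and 0.065). The deposited TPM of Igf2bp2 and Igf2bp3 was higher in the IgA-null dam group (0.26 and 0.21) and the scaled TPM lower (-0.15 and -0.19), none of them past the threshold. Of the 11 tested genes of the suckling enterocyte, 3 were lower in that group as deposited, where 0.358% of all genes were. After scaling 4 of the 11 were lower, with a median log2 fold change of -1.23, and 0 were higher. Whether Lect2 and Gpc3 differed beyond that shift was not tested.

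At day 24 none of the 7 passed in limma, where 0.0265% of all genes did. Of the 7, 3 had an unadjusted p under 0.05 (Afp, Gpc3 and Igf2bp2), as did 4659 of all 15066 genes tested. Afp was then lower in the IgA-null dam group, at 1.17 ± 0.357 TPM (SD, n = 3), against 3.40 and 2.72 TPM in the B6 dam group (log2 fold change -0.91, SE 0.33, adjusted p = 0.098). At day 42 none of the 7 passed, where 0% of all genes did in limma. Afp alone of the 7 had an unadjusted p under 0.05 (0.71, SE 0.30, adjusted p = 1), as did 174 of all genes tested. Limma-voom also called no member at either age.

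The dam effect differed between ages for Afp by the moderated F test (F = 25.7, adjusted p = 0.017), which 1.75% of all genes passed. This call was lost after scaling (adjusted p = 0.081), with limma-voom (adjusted p = 0.098) and without B6 dam day 24 replicate 1 (adjusted p = 0.052). The other 6 members had adjusted p between 0.10 (Lect2) and 0.95 (H19).

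Enteroendocrine markers moved with Afp between days 14 and 24, and less closely at day 42. Summed over the granule proteins Chga and Chgb and the hormones Gip and Nts, they stood at 1376, 962 and 1430 TPM at day 14, 256, 192 and 126 TPM at day 24 and 1158, 1380 and 711 TPM at day 42 in the IgA-null dam group. In the B6 dam group the sum was 149, 192 and 151 TPM, then 810 and 412 TPM, then 234, 712 and 1353 TPM. All 4 markers were higher at day 14 in the IgA-null dam group, where 8.32% of all genes tested were higher, and all 4 remained so after scaling.

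The summed markers include Chga, whose course over the 17 libraries was the closest to that of Afp (r = 0.884, among 6606 genes). Afp was set against this sum, a ratio chosen after the values were seen and given as a description only. Per 1000 TPM of the 4 markers it came to 6.51, 7.71 and 9.88 TPM in the IgA-null dam group and to 9.999, 7.99 and 4.99 TPM in the B6 dam group. At day 24 it came to 3.50, 8.19 and 8.31 TPM in the IgA-null dam group and 4.19 and 6.59 TPM in the B6 dam group. At day 42 the means were 3.99 and 3.98 TPM in the same groups, below the day 14 means of 8.04 and 7.66 TPM. The dam groups overlapped at each age on this measure. Goblet cell markers were also higher at day 14 in the IgA-null dam group, with 1259 to 2373 TPM summed over 4 genes. In the B6 dam group they summed to 278 to 407 TPM. The part of enteroendocrine or goblet cells in the Afp difference was not tested.

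**Figure D4:**
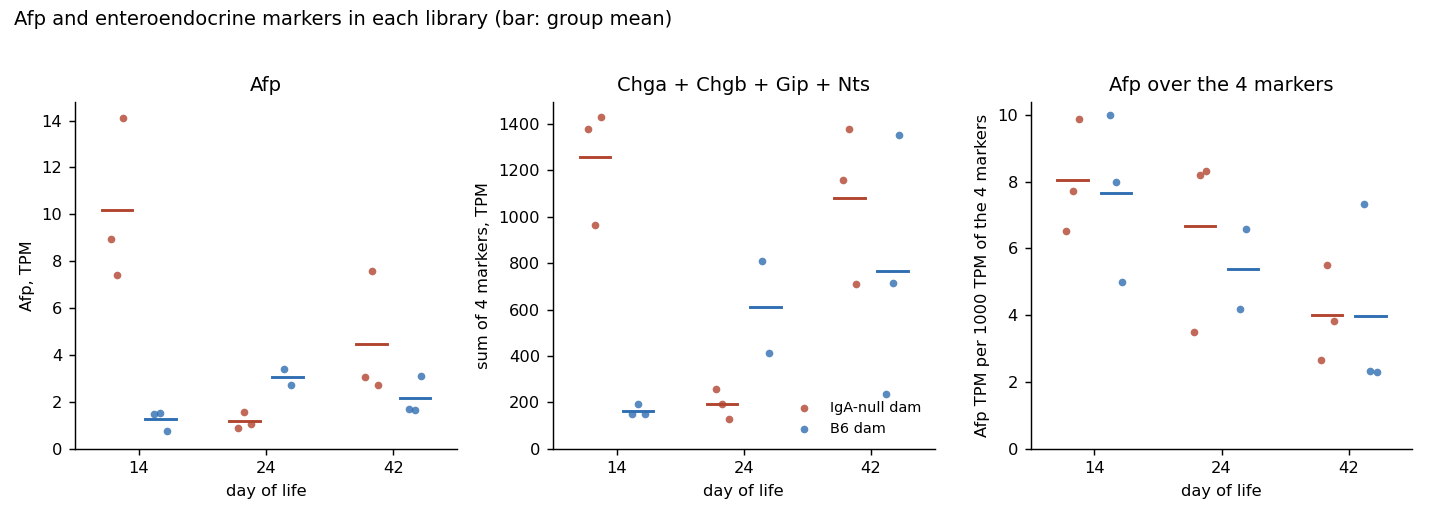
Afp in TPM (left), the summed TPM of Chga, Chgb, Gip and Nts (middle) and Afp TPM per 1000 TPM of that sum (right) by day of life, with 1 point per library, IgA-null dam in red left of B6 dam in blue, and a bar at the group mean. At day 14 the dams stand apart on the left and in the middle and overlap on the right, where the means are 8.04 and 7.66 TPM.

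A search for the most similar courses over the 17 libraries, by Pearson's r of log2(TPM + 1) among 6606 genes, placed Afp apart from the other members. Its closest genes were Chga (r = 0.884), Bex2 (0.878) and Pcsk1n (0.871), the last of which encodes a neuroendocrine secretory protein, and with scaled TPM these fell to 0.790, 0.775 and 0.686. Its r with the other 6 tested members lay between 0.239 (Prdm1) and 0.532 (Igf2bp2) as deposited, and between -0.301 (Igf2bp2) and -0.011 (H19) scaled. Libraries of one group share age and dam, so r across them is a description.

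Prdm1 was closest to Mcoln3, an endolysosomal channel (0.992), Fcgrt (0.991) and Dab2, an endocytic adaptor (0.991), and Lect2 to Mamdc4, a protein of the suckling endocytic apparatus (0.990), Renbp (0.989) and St3gal1 (0.988). H19 was closest to Spp2 (0.926), Dab2 (0.917) and the pancreatic protease gene Ctrb1 (0.913). Gpc3 was closest to Kcns3 (0.989), Ros1 (0.982) and Cyp2w1 (0.981), and Igf2bp3 to Gpc3 itself (0.980), Kcns3 (0.978) and Trpv5 (0.954). With scaled TPM all of these lay between 0.878 and 0.990. Igf2bp2 was closest to Rapgef1, Dgkz and Tra2a (0.986, 0.983 and 0.982), and these fell to 0.881, 0.829 and 0.798 once scaled.

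For the age comparisons, whose members were chosen with them in view, limma's calls are counted without reading anything from them. H19 and Prdm1 reached the filter through day 14 libraries alone, so that their lower level at later ages was fixed by it. At day 24 over day 14 in the IgA-null dam group 7 of the 7 tested members were called lower, as were 82.9% of all genes, and after scaling 5, as were 8.28%. In the B6 dam group 4 were called lower, as were 6.99% of all genes, and after scaling 4 were lower and 1, Afp, higher, as were 5.91% and 7.93%. At day 42 over day 24, Igf2bp3 and Gpc3 were called lower and Afp and Lect2 higher in the IgA-null dam group, where 0.863% of all genes were lower and 48.5% higher. Neither Afp nor Lect2 was called after scaling, and as deposited Lect2 was not called without day 42 replicates 1 or 2 or day 24 replicates 2 or 3. In the B6 dam group Igf2bp3 was the 1 gene of all tested called lower (0.00664%), and it was not called without any 1 of the 3 day 42 libraries or without day 24 replicate 1. At day 42 over day 14, 7 were called lower in the IgA-null dam group, as were 38.9% of all genes, and 5 in the B6 dam group, as were 6.33%. After scaling, Afp and H19 were not called in the IgA-null dam group, and Igf2bp2 was called lower in the B6 dam group as well. Scaled, 5 members were lower in the IgA-null dam group and 6 in the B6 dam group, as were 8.09% and 6.6% of all genes. As deposited, H19 was not called in the IgA-null dam group without any 1 of the 3 day 42 libraries or without day 14 replicate 3. Afp was not called in that group without replicate 3 of either age. In the B6 dam group H19 was not called without any 1 of the 3 day 42 libraries or without day 14 replicates 1 or 2.

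Markers of other cell types were summed beside these genes, and their part in the levels above was not tested. Endothelial markers summed to at most 2.16 TPM over 7 genes. Exocrine pancreas markers summed over 6 genes to 3.26 to 7.28 TPM in the IgA-null dam group and 3.16 to 12.6 TPM in the B6 dam group at day 14. At the later ages they summed to at most 1.35 TPM. Erythroid markers summed over 6 genes to 0.968 to 36.3 TPM in the IgA-null dam group at day 24 and to at most 2.68 TPM in the other groups. Hepatocyte markers summed to 8.67 to 13.9 TPM in the IgA-null dam group and 10.9 to 28.4 TPM in the B6 dam group at day 14, mostly from transthyretin (Ttr, 10.2 and 17.2 TPM in the mean), while albumin was near 0. The epithelial markers summed to between 650 and 2342 TPM, with Epcam at 153 TPM or more in every library.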

How the data were processed

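The authors deposited TPM values for 53278 gene symbols in 17 libraries, which had been amplified with SMART-seq v4 and prepared with Nextera XT, per the labels' protocols; the submitters' processing notes list the build mm10 and the tools Bowtie2, DESeq2 and Subread, and strand and filters are not given in the sources used here. No scaling between libraries had been applied to the deposited TPM columns. Depth was recovered by multiplying TPM by exon length (GENCODE M21), which gave whole reads, within 0.01 reads or a relative 0.0001, for 93.6% of values over 49618 symbols. No molecular identifiers mark these amplified reads, so counting error gives only a lower bound on the error of a count. On counting error alone, 3 reads were taken as the limit that a count of 0 allows.

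A gene was tested where 2 libraries or more reached a TPM of 1 (15066 genes, 7 of the 10 members; Igf2bp1, Lin28b and Igf2 did not pass). Values of log2(TPM + 1) from the 17 libraries were fitted together, with 6 group means and the intensity trend of limma 3.58.1 (R 4.3.3), with Benjamini-Hochberg adjustment over all genes and a threshold of 0.05. Fold changes on this scale understate the change of low genes; folds of means were taken on TPM. A moderated F test compared the dam effect between ages. On simulated data in the day 14 design, 7% of genes changed 2-fold and 99% changed 4-fold were recovered among 13455 genes. The changed genes were well covered by reads, the simulated spread was set alike for all genes, and no shift of most genes together was built in. These shares therefore do not describe genes of few reads such as H19. Alternatives were pseudocounts of 0.1 and 5, other filters, median-of-ratios scaling, the compared groups alone, a replicate block, limma-voom on recovered reads and leaving out each library.

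Members, gene lists and tests were chosen with earlier results of these data known. Named genes outside the members were mainly of 2 kinds. One kind was the 3 most correlated tested genes for each member with a group mean of at least 1 TPM. Predicted genes and genes whose highest group mean was under 5 TPM were left out of it. The other kind was the genes of smallest p in each list. Further genes were named as neighbours on the chromosome, as markers of cell types or, like Zhx2, Lin28a and Igf1, as listed genes with a known role. Promoters and the miRNA came from RefSeq tables (GRCm38.p6), which matched 8 of the 10 genes. Python 3.11.15 with pandas 2.3.3 and numpy 2.4.6 was used.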

Additional observations from a re-analysis of the deposited data

Results flagged for a closer look

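The dam effect on Afp differed between ages in the moderated F test of limma (adjusted p = 0.017). Afp was higher in the IgA-null dam group than in the B6 dam group at day 14 (log2 fold change 2.28, in 3 of 3 libraries), lower at day 24 (-0.91) and higher at day 42 (0.71), and the difference at day 24 and that at day 42 did not pass on their own. The call was lost after scaling (adjusted p = 0.081), with limma-voom (adjusted p = 0.098) and without B6 dam day 24 replicate 1 (adjusted p = 0.052). The summed enteroendocrine markers stood at 962 to 1430 TPM in the IgA-null dam group and 149 to 192 TPM in the B6 dam group at day 14. At day 24 they stood at 126 to 256 TPM and 412 to 810 TPM in the same groups. Their part in the Afp difference was not tested.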

How the results depend on the processing

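The call of Afp between the dams at day 14 held under all alternatives. The number of members called in that comparison was 1 as deposited, 3 after scaling and 2 with limma-voom, where 1307, 447 and 418 of all genes were called. At day 42 over day 24 it was 4 in the IgA-null dam group, where 7434 of all genes were called. It was 2 with a pseudocount of 5, scaling or limma-voom, where 6269, 389 and 316 of all genes were called. In the B6 dam group it was 1, against 2 with scaling or limma-voom, where 3, 4 and 4 of all genes were called. It was 0 there with a pseudocount of 5, a TPM of at least 5, the compared groups alone or the replicate block, where 0 to 2 of all genes were called. At day 24 over day 14 in the B6 dam group it was 4, and 2 with the compared groups alone, where 1297 and 69 of all genes were called. With scaling or limma-voom it was 5, with Afp as the 1 member higher, where 2084 and 2295 of all genes were called. For the dam effect differing between ages it was 1, and 0 with scaling or limma-voom, where 264, 21 and 7 of all genes were called. The F of Afp was 15.42 with scaling and 14.36 with limma-voom, against 25.7. The causes were not tested.

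With each library left out in turn, the members called between dams at day 24 ranged from 0 to 1 (Igf2bp2, without B6 dam day 24 replicate 2). They ranged from 0 to 1 for the later interval of the B6 dam group, where 1 to 19 of all genes were called. For the difference between ages they ranged from 0 to 2, and the F of Afp from 18.2 to 41.3. Without B6 dam day 24 replicate 2, 4870 of all 15066 genes tested were called between dams at day 24, against 4 in the main fit. For the difference between ages 6555 were called without that library, where 2 members were called, against 264 in the main fit.

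Uncalled dam effects changed sign in some settings. With scaling these were Igf2bp2 and Igf2bp3 at day 14 (-0.15 and -0.19) and Igf2bp3 and Lect2 at day 24 (0.15 and 0.30). With limma-voom they were Igf2bp2 and Igf2bp3 at day 14 (-0.15 and -0.20), and Igf2bp3, H19, Prdm1 and Lect2 at day 24 (0.24, -0.046, 0.092 and 0.56). With a pseudocount of 0.1, Igf2bp2 at day 42 stood at 0.0011. Leaving out single libraries, the log2 fold changes of day 14 ranged from -0.37 to 0.29 for H19 and from -0.22 to 0.021 for Gpc3. Those of day 24 ranged from -0.061 to 0.071 for H19, -0.20 to 0.14 for Lect2 and -0.47 to 0.029 for Prdm1. Those of day 42 ranged from -0.18 to 0.14 for Igf2bp2, -0.071 to 0.083 for Igf2bp3 and -0.039 to 0.093 for H19.

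Samples that share a number correlated above 0.1 in 10 of 40 pairs (-0.649 to 0.261). Samples of different number were not compared in this way, so whether the numbers pair the libraries was not settled. With the replicate block Lect2 at day 24 stood at 0.031, and the count of calls at day 42 over day 24 in the B6 dam group was 0, as given above. Depth limits Igf2bp1, Lin28b and Igf2, which rest on 42, 13 and 103 reads in all libraries together. It also limits H19, which was tested but rests on 200 reads in all, with 4 libraries at 0.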

Other observations

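Along the 848.1 kb of chromosome 10 between Prdm1 and Lin28b, Prep, which encodes a cytosolic peptidase, was expressed at every age, at means of 5.68, 1.95 and 3.79 TPM at days 14, 24 and 42 in the IgA-null dam group and 3.66, 3.04 and 3.41 TPM in the B6 dam group, while Popdc3 and Bves stayed at or below 0.0819 TPM in the mean. Of 9 genes taken from fetal intestinal spheroids 1 passed the filter, the matricellular gene Cyr61, which averaged 1.32 ± 0.250 TPM at day 24 and 9.32 ± 2.18 TPM at day 14 in the IgA-null dam group (SD, n = 3 each). In the B6 dam group Cyr61 stood at 0.854 and 1.34 TPM at day 24 and averaged 6.88 ± 2.05 TPM at day 14 (SD, n = 3). Its scaled log2 fold change over both dams was -1.30.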
